A study of Rattus norvegicus with 3 samples.

Results

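The chemokines and chemokine receptors described here are the genes of the rat array whose RefSeq symbol starts with Ccl, Cxcl, Ccr, Cxcr or Ackr and a number. They were chosen by name, through the accession of each noncontrol probe, with earlier results of these data known. The rule found 49 genes among 16648 named genes with a usable spot: 20 CC ligands, 11 CXC ligands, 10 CC receptors, 6 CXC receptors and 2 atypical receptors. They were read by 62 probes, of which 93 of 102 spots were kept and 9 were left out as outliers. For 40 of the genes there was 1 probe, and 9 genes had more. Another 4 symbols that meet the rule, Ackr1, Ackr4, Ccr8 and Cxcl3, were not on the array.

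RNA of the cerebellar cortex of male Wistar rats, 9 weeks old, was measured on day 2 after surgery to examine crossed cerebellar diaschisis, a remote effect of a cerebral infarct on the opposite cerebellar hemisphere. In the MCAO group the right middle cerebral artery was occluded for a time with an intraluminal suture and then reopened, and rats were selected by a neurological score. In the control group, the sham operation exposed the right common carotid artery without opening it. Each of the 3 arrays, all 1-colour Cy3 arrays on 1 slide, held RNA pooled from 4 rats. The contralateral array is the left cortex of the MCAO group, the ipsilateral array is the right cortex of the same 4 rats, and the control array is the left cortex of the sham group. With 1 array per group there are no replicates, so no test was possible, and the number of arrays limits the precision of every value.

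Chemokines are small secreted proteins that guide leukocytes along concentration gradients by binding G protein-coupled receptors on their surface. CC and CXC ligands are named for the spacing of their conserved cysteines, and atypical receptors bind ligands without G protein signalling and remove or move them. In the injured brain, microglia, astrocytes and endothelial cells are known sources of inflammatory chemokines, while Cxcl12, its receptors Cxcr4 and Ackr3, and Cxcl14 are also made in the uninjured brain.

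Detection comes first, because a probe near background gives no ratio. A probe counts as well above background on an array when more than 1 in 2 of its kept spots carry that call from the scanner software. By this rule 26 of the 49 genes were detected contralaterally, 28 ipsilaterally and 26 in the control, and 35, 37 and 35 of the 62 probes. There were 22 genes above background on all 3 arrays, 9 on some arrays and 18 on none. The members were detected less often than named genes in general: 44.9% of members and 72.0% of the 16648 named genes were above background on all 3 arrays.

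Among the 20 CC ligands, 11 were above background on the contralateral, 12 on the ipsilateral and 13 on the control array. The 11 CXC ligands gave 7, 7 and 6 genes in the same order. Of the 10 CC receptors, 5, 5 and 4 were detected, and of the 6 CXC receptors 2, 3 and 2. Of the 2 atypical receptors, Ackr3 was above background on every array and Ackr2 on none. The other 17 genes below background on all 3 arrays were Ccl1, Ccl4, Ccl11, Ccl26, Ccl28, Cxcl1, Cxcl6, Cxcl11, Cxcl13, Ccr1, Ccr2, Ccr3, Ccr4, Ccr7, Cxcr1, Cxcr2 and Cxcr6. Both neutrophil receptors for CXC ligands, Cxcr1 and Cxcr2, and the monocyte receptor Ccr2 are thus in the undetected set. For Cxcl1, 1 of 6 kept spots was above background on the control array.

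**Figure D1:**
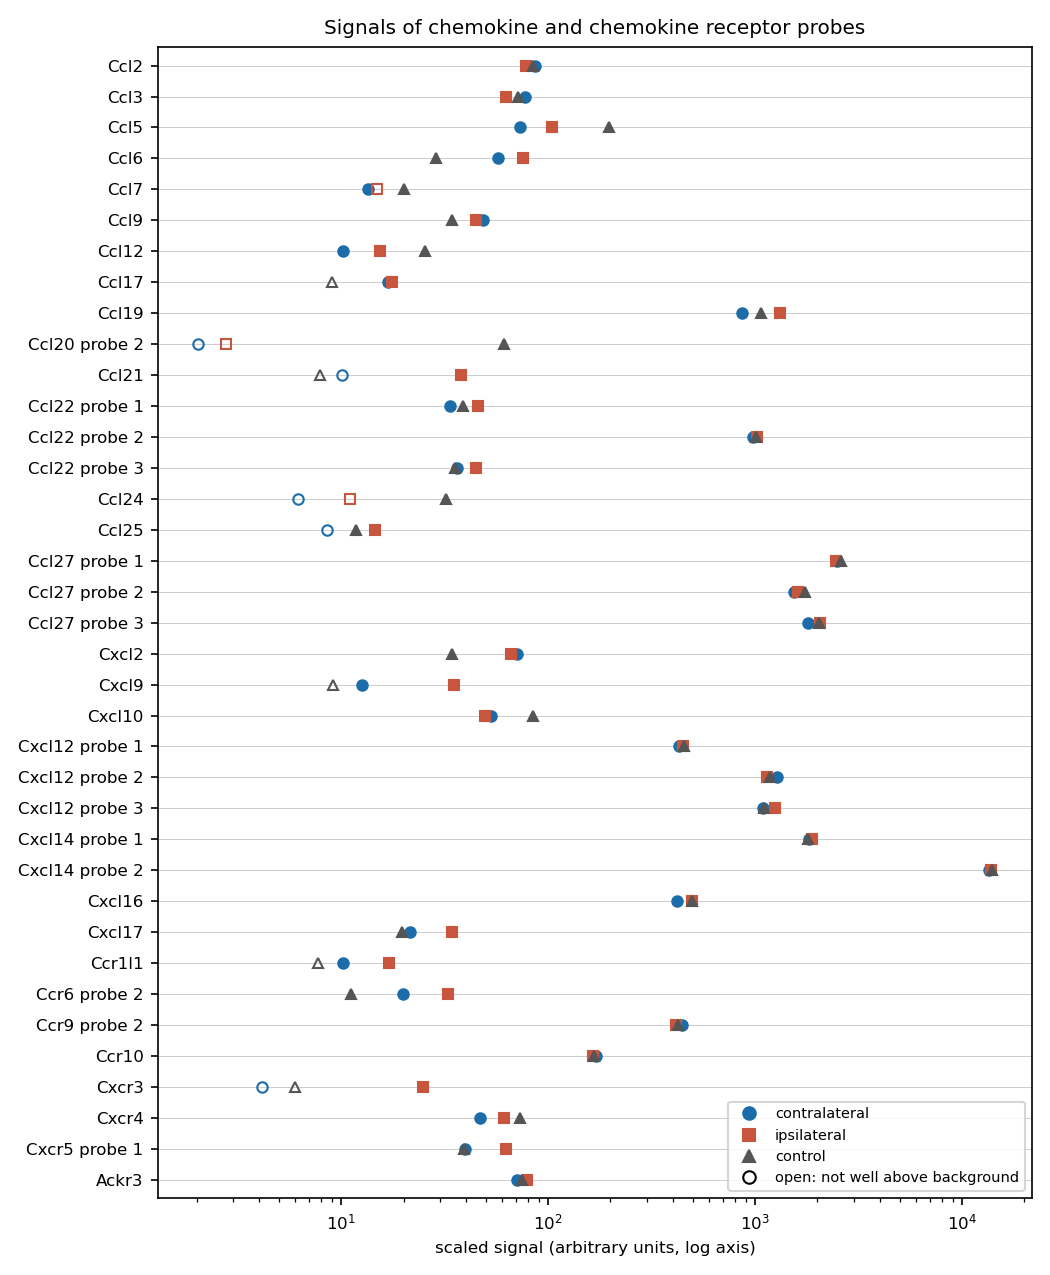
Scaled signal (arbitrary units, log axis) of the probes of the members described, for probes well above background on at least 1 array. Circles are the contralateral, squares the ipsilateral and triangles the control array, and open marks are values not well above background. The 3 arrays nearly coincide for the bright Cxcl14, Cxcl12 and Ccl27 probes.

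Signals are given in arbitrary units after the arrays were scaled to a common 75th percentile. They compare arrays for 1 probe and not 1 probe with another. Ratios are log2 ratios, followed by the error that the scanner software assigns to the spots. That error covers neither differences between rats nor between hybridisations. Both ratios to control use the same control array, and both MCAO arrays come from the same rats, so they are not independent of each other. A gene counts as beyond the threshold when its log2 ratio is above 1 or below -1, and counts are taken over the 22 members above background on all 3 arrays. For a gene dim on 1 array, a bound of the form at least N-fold is given, with the dim array set to the higher of its own signal and the lowest signal called above background on that array (9.12 contralateral, 11.6 ipsilateral and 8.72 control).

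The comparison of the contralateral cortex with control asks how the chemokine system differed in the hemisphere opposite the infarct. Here 2 of 22 members were above a log2 ratio of 1, Ccl6 and Cxcl2, against 0.918% of the 11981 named genes that passed the same filter. Another 2 of 22 were below -1, Ccl5 and Ccl12, where the share of named genes was also 0.918%. The 22 ratios ran from -1.44 to 1.04, with 12 above 0 and 10 below, and 13 were smaller than their scanner error. Their median was 0.02 (-0.13 without scaling, -0.06 with scaling to spike-in probes and -0.02 with the deposited values), beside 0.0050 for all named genes.

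The ipsilateral cortex lies on the side of the infarct, and its comparison with control shows whether the same genes stood apart there. In it 2 of 22 members were above a log2 ratio of 1, Ccl6 and Ccr6, against 2.04% of named genes, and 0 of 22 were below -1, against 0.576%. Ratios ran from -0.93 to 1.41, with 14 above 0 and 8 below, and 11 were smaller than their scanner error. The median was 0.06 (-0.47 without scaling and -0.19 with scaling to spike-in probes, and -0.01 with the brightest probe of each gene), beside 0.02 for all named genes. Between the sides, 0 of 22 members were above 1 or below -1 in the contralateral to ipsilateral ratio. Of named genes 0.217% and 1.54% were. The filter also asks for signal on the control array, which this ratio does not use. Outside it, Cxcl9 was above background on both sides, at -1.47 ± 0.34 (-0.57 with normexp), and so was Ccl17, at -0.06 ± 0.34. Ccl21 and Cxcr3 were dim contralaterally, at least 3.76-fold and 2.73-fold lower than ipsilaterally (1.59-fold and 1.49-fold with normexp). The median of the contralateral to ipsilateral ratio was -0.21 (0.17 without scaling) over the 22 members, 16 of them below 0. It was -0.0053 over named genes and -0.46 over negative-control spots.

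These shares depend on brightness, since dim spots give wider ratios. In a comparison chosen after seeing the data, 16 of the 22 members lay below the median signal of the named genes, and they include every member beyond the threshold. Among the 5990 named genes below that signal, 1.57% were above 1 and 1.70% below -1 in the contralateral to control ratio. The ipsilateral to control shares of these dimmer genes were 3.67% and 1.10%. Between the sides their shares were 0.434% above 1 and 3.06% below -1. The 308 negative-control spots, which carry no gene, had a median log2 ratio of 0.52 in the ipsilateral to control comparison. Their median was 0.06 in the contralateral to control comparison and -0.46 between the sides. Without scaling, the median of all named genes moved to -0.15 in the contralateral to control ratio, -0.52 in the ipsilateral one and 0.38 between the sides. Leaving scaling out changes every log2 ratio by the same amount, -0.15 contralaterally, -0.53 ipsilaterally and 0.38 between the sides, so each statement that a gene was within its scanner error holds for scaled arrays. Scaling to spike-in probes moved it to -0.08, -0.23 and 0.17.

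**Figure D2:**
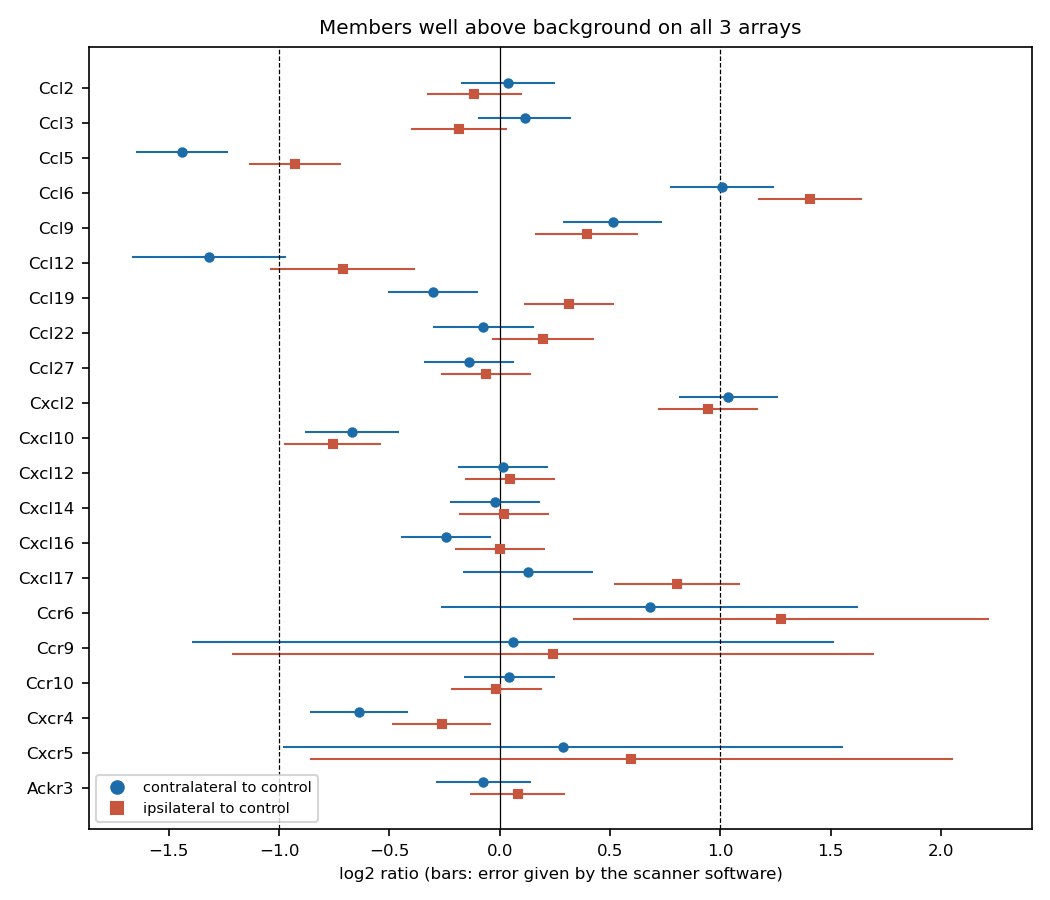
Log2 ratio to control of the members described that are above background on all 3 arrays, with circles for the contralateral and squares for the ipsilateral cortex. Bars are the error given by the scanner software and dashed lines mark -1 and 1. Ccl5 and Ccl12 lie farthest left, and Ccl6, Cxcl2 and Ccr6 farthest right.

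Ccl6, a CC ligand of rodents made by macrophages, had signals of 57.4 on the contralateral, 75.8 on the ipsilateral and 28.6 on the control array, each over 9 spots. Single spots ranged from 53.6 to 65.5, from 70.8 to 85.0 and from 24.8 to 39.1, so the control spots did not overlap those of either MCAO array. The log2 ratio to control was 1.01 ± 0.24 contralaterally, which is just past the threshold, and 1.41 ± 0.24 ipsilaterally. Ccl6 was higher on both sides of the MCAO group than in the control, also without scaling (0.85 and 0.87, both under the threshold).

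Ccl5, which attracts T cells and monocytes, gave 72.8, 104 and 198 for contralateral, ipsilateral and control cortex. Its 2 spots ranged from 71.1 to 74.5, from 102 to 106 and from 194 to 201. The ratio to control was -1.44 ± 0.21 contralaterally and -0.93 ± 0.21 ipsilaterally (-1.46 without scaling and -1.18 with spike-in scaling). Ccl5 was thus lowest in the contralateral cortex and highest in the control, in this order in both of its spots. Ccl12, a monocyte attractant that binds Ccr2, had 1 spot, with 10.1, 15.4 and 25.3 in the same order of arrays. Its ratio was -1.32 ± 0.35 contralaterally (-0.10 with normexp, a model-based background subtraction run here on median signals with 50 added) and -0.71 ± 0.33 ipsilaterally (-1.25 without scaling, 0.22 with normexp and -0.20 with 50 added alone). The contralateral value of Ccl12 is close to the lowest signal called above background. Which of the steps changed together in normexp moved its ipsilateral sign was not tested. For Ccl5 the ipsilateral ratio was -0.48 with normexp and -0.69 with 50 added alone.

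Cxcl2, which draws neutrophils through Cxcr2, had 1 spot, with signals of 70.6, 66.2 and 34.4 for contralateral, ipsilateral and control cortex. The ratio to control was 1.04 ± 0.22 contralaterally (0.88 without scaling) and 0.94 ± 0.23 ipsilaterally (0.41 without scaling). Both MCAO arrays were above the control, and only the contralateral ratio passed the threshold. Ccr6, the receptor of Ccl20 on T helper, B and dendritic cells, had 2 probes, of which 1 was dim on every array. The other gave 19.8, 32.8 and 11.2 in the same order of arrays. Ratios of this probe were 0.82 ± 0.38 and 1.55 ± 0.36, and those of the gene, as the mean of both probes, were 0.68 ± 0.94 and 1.28 ± 0.94 (0.74 without scaling). The ipsilateral signal of the brighter Ccr6 probe was the highest of the 3 arrays, and the large error of the gene value comes with the dim probe.

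The sequences before the start of 4 of these 5 genes are printed because they are the members beyond the threshold in a ratio to control, and Ccl5 had no entry. Promoters are from RefSeq on build GRCr8 and 38 of 49 members matched. Each line is the 250 bases before the start site, 5′ to 3′: chr10:68883367-68883616 on the minus strand for Ccl6, chr10:67567626-67567875 on the plus strand for Ccl12, chr14:17467256-17467505 on the minus strand for Cxcl2 and chr1:55046129-55046378 on the minus strand for Ccr6. Capitals mark motif matches, for the NF-kappaB motif in Cxcl2 and the STAT motif in Ccr6.
Ccl6: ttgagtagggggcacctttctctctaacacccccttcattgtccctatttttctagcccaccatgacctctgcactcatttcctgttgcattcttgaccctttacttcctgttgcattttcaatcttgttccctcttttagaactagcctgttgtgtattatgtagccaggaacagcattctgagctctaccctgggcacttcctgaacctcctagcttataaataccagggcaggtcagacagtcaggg
Ccl12: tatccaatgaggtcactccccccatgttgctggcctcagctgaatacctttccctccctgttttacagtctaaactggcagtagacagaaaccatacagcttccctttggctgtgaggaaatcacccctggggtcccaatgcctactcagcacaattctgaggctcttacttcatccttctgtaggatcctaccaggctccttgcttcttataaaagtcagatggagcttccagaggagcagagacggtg
Cxcl2: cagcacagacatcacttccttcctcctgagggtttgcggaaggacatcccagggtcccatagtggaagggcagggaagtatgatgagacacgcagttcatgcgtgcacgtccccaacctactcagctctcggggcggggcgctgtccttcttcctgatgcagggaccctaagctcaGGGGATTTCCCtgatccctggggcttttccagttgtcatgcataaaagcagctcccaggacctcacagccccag
Ccr6: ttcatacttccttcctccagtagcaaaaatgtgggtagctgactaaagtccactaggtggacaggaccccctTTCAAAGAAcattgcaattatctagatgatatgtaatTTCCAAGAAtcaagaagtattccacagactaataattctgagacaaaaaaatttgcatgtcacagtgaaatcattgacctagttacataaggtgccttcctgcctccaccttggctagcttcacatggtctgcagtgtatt
Of 3 motifs searched on both strands, NF-kappaB, a consensus of 10 bases, was in 9 of the 38 members: Ccl7, Ccl9, Ccl20, Cxcl1, Cxcl2, Cxcl6, Cxcl10, Cxcl11 and Ccr3. It was in 6.33% of all 33469 promoters of this length. The interferon motif GAAANNGAA was in Ccl19, Cxcl10 and Ccr2, and in 8.12% of all promoters. The STAT motif TTCNNNGAA, which reads the same on both strands, was in Ccl17, Ccl24, Cxcl11 and Ccr6, and in 7.67% of all. In Cxcl2 overlapping NF-kappaB matches span the bases from 74 to 64 before the start, and in Ccr6 the STAT matches lie at 178 to 170 and 141 to 133. In Ccl6 and Ccl12 none of the 3 motifs was found in this window. A match describes letters and not binding.

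Among the other CC ligands, Ccl2, the main attractant of monocytes through Ccr2, had signals of 86.4, 77.8 and 84.2 over 7 spots for contralateral, ipsilateral and control cortex. Its spots ranged from 80.0 to 93.4, from 67.5 to 89.3 and from 78.2 to 90.7. The ratios to control were 0.04 ± 0.21 and -0.11 ± 0.22, and the 3 ranges overlapped. Ccl3, a ligand of Ccr1 made by activated macrophages, gave 76.9, 62.6 and 71.2, and ratios of 0.11 ± 0.21 and -0.18 ± 0.22. On scaled arrays neither of these inflammatory ligands differed from the control beyond its scanner error. Their ipsilateral ratios were -0.65 and -0.72 without scaling, and 0.14 and 0.12 with normexp. Ccl9, a rodent ligand of Ccr1, gave 48.7, 44.9 and 34.1, and ratios of 0.51 ± 0.23 and 0.39 ± 0.23 (-0.14 without scaling). Ccl9 was above the control on both MCAO arrays, but on the ipsilateral side only with scaling.

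Ccl7, another monocyte attractant, had signals of 13.5, 15 and 20.0, and on the ipsilateral array only 1 of its 2 spots was above background. Its contralateral ratio was -0.57 ± 0.35 (0.04 with normexp), and on the ipsilateral side it was at least 1.34-fold lower than control, a bound that normexp did not give. The control array had the highest Ccl7 signal, near the floor of detection on all arrays.

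Ccl19 and Ccl21, the ligands of Ccr7 that steer T cells and dendritic cells into lymphoid tissue, had lower signals contralaterally than ipsilaterally. Ccl19 gave 862 contralaterally, 1323 ipsilaterally and 1065 in the control, with ratios of -0.30 ± 0.20 and 0.31 ± 0.20 (-0.22 without scaling and 0.06 with spike-in scaling). Its contralateral to ipsilateral ratio was -0.62 ± 0.20 (-0.24 without scaling), and the control lay between the sides when the arrays were scaled. Ccl21 was above background only ipsilaterally, at 38.0, and not at 10.1 contralaterally or 7.87 in the control. That is at least 4.36-fold higher ipsilaterally than in the control (1.79-fold with normexp), and at least 3.76-fold lower contralaterally than ipsilaterally (1.59-fold with normexp).

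Ccl17 and Ccl22 share the receptor Ccr4 and attract T helper and regulatory T cells. Ccl17 gave 16.9 and 17.6 on the contralateral and ipsilateral arrays and was not above background in the control at 9.04, at least 1.87-fold and 1.94-fold higher than control (1.23-fold and 1.49-fold with normexp). The 2 sides of Ccl17 differed by -0.06 ± 0.34. Ccl22 had 3 probes, with 33.7, 45.7 and 38.8 for the first, 979, 1018 and 1011 for the second and 36.1, 44.8 and 35.4 for the third. As their mean it had ratios of -0.08 ± 0.23 and 0.19 ± 0.23, both within the scanner error.

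Ccl20, the ligand of Ccr6, was above background on the control array alone, in 1 spot of 1 of its 2 probes. That spot gave 61.0 in the control, against 2.03 and 2.78 on the contralateral and ipsilateral arrays, at least 6.69-fold and 5.28-fold lower (1.48-fold and 1.18-fold with normexp). The other Ccl20 probe was below background on every array, so the control value rests on a single spot. Ccl24, which attracts eosinophils through Ccr3, was also detected only in the control, at 32.2 against 6.21 and 11.0, at least 3.53-fold and 2.79-fold lower (1.16-fold contralaterally with normexp, which gave no ipsilateral bound). Ccl25, the ligand of Ccr9, gave 8.53 contralaterally, not above background, 14.6 ipsilaterally and 11.8 in the control. The contralateral value of Ccl25 was at least 1.30-fold lower than control, and the ipsilateral ratio was 0.30 ± 0.40.

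Ccl27, a ligand of Ccr10 known from skin, had 3 bright probes, with 2495, 2461 and 2589 for the first, 1545, 1614 and 1747 for the second and 1794, 2051 and 2046 for the third. Its ratios to control were -0.14 ± 0.20 and -0.06 ± 0.20, within the scanner error. On the genome Ccl27 overlaps Il11ra1. Other described members also overlap a gene: Cxcl10 overlaps Art3, Cxcl16 overlaps Zmynd15, Ccr10 overlaps Cntnap1, Cxcr5 overlaps Bcl9l and Ccr1l1 overlaps Ccr3. What part of a signal belongs to either gene of a pair was not tested.

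Among the CXC ligands, Cxcl9 and Cxcl10 are induced by interferon and attract activated T cells through Cxcr3. Cxcl9 gave 12.7 contralaterally, 35.1 ipsilaterally and 9.16 in the control, where it was not above background. It was at least 1.38-fold and 3.83-fold higher than control on the contralateral and ipsilateral sides (1.20-fold and 1.79-fold with normexp), and the contralateral to ipsilateral ratio was -1.47 ± 0.34 (-0.57 with normexp). Cxcl9 was therefore highest ipsilaterally and lies outside the 22 because the control was dim. Cxcl10 gave 52.8, 49.8 and 84.1 for contralateral, ipsilateral and control cortex, and ratios of -0.67 ± 0.21 and -0.76 ± 0.22. The ipsilateral ratio of Cxcl10 passed -1 without scaling (-1.29) and with spike-in scaling (-1.01). Its ratios to control were smaller in size with normexp (-0.33 and -0.19) and with 50 added (-0.38 and -0.43). Cxcl10 was lower on both MCAO arrays than in the control, so the pair did not share a direction. The sides of Cxcl10 differed by 0.09 ± 0.22 (0.47 without scaling and -0.14 with normexp).

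Cxcl12, which guides neural and blood precursors and binds Cxcr4 and Ackr3, had 3 probes with 429, 451 and 452, then 1280, 1149 and 1177, then 1095, 1243 and 1102. The ratios of the gene were 0.01 ± 0.20 and 0.05 ± 0.20. Cxcl14, a homeostatic ligand, had 1813, 1893 and 1808 for 1 probe and 13561, 13767 and 14012 for another with 9 spots, with ratios of -0.02 ± 0.20 and 0.02 ± 0.20. Both constitutive ligands were level across the 3 arrays within the scanner error.

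Cxcl16, a membrane-bound ligand of Cxcr6, gave 420, 498 and 498, and ratios of -0.25 ± 0.20 and 0.00 ± 0.20. Cxcl17, a ligand known from mucosal tissue, gave 21.4, 34.2 and 19.6, and ratios of 0.13 ± 0.29 (-0.02 without scaling) and 0.80 ± 0.28 (0.27 without scaling). The ipsilateral array had the highest Cxcl17 signal, and the sides differed by -0.67 ± 0.28 (-0.29 without scaling).

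Of the CC receptors besides Ccr6, Ccr9, which homes T cells to thymus and gut, had 1 probe dim on all arrays and another with 444, 417 and 425, whose ratios were 0.06 ± 0.20 and -0.03 ± 0.20. Ccr10, the receptor of Ccl27, gave 171, 164 and 166, with ratios of 0.04 ± 0.21 and -0.02 ± 0.21. Neither differed from control beyond the scanner error. Ccr1l1, a gene like Ccr1, gave 10.2 and 17.0 on the MCAO arrays and 7.72 in the control, where it was dim, at least 1.17-fold and 1.95-fold higher.

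Of the CXC receptors, Cxcr4, the signalling receptor of Cxcl12, gave 47.0 contralaterally, 60.9 ipsilaterally and 73.1 in the control. Its ratios were -0.64 ± 0.22 and -0.26 ± 0.22 (0.03 with normexp). With scaling Cxcr4 was lowest contralaterally, and without it the sides were level (-0.79 and -0.80 to control). The control was highest except with normexp. Cxcr3, the receptor of Cxcl9 and Cxcl10, was above background only ipsilaterally, at 24.9 against 4.16 contralaterally and 6.0 in the control. It was at least 2.85-fold higher ipsilaterally than in the control (1.71-fold with normexp), and at least 2.73-fold lower contralaterally than ipsilaterally (1.49-fold with normexp). Cxcr3 and Cxcl9 thus both had their highest signal on the ipsilateral array.

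Cxcr5, which brings B cells to follicles, had 1 dim probe and another with 39.8, 62.5 and 39.3, whose ratios were 0.02 ± 0.22 and 0.67 ± 0.22. Its sides differed by -0.65 ± 0.22 in that probe, with the ipsilateral array highest. The gene values, with the dim probe, were 0.29 ± 1.27 and 0.60 ± 1.46 (0.06 without scaling). The atypical receptor Ackr3, which removes Cxcl12, gave 70.7, 78.7 and 74.4, and ratios of -0.07 ± 0.21 and 0.08 ± 0.22, within the scanner error.

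**Figure D3:**
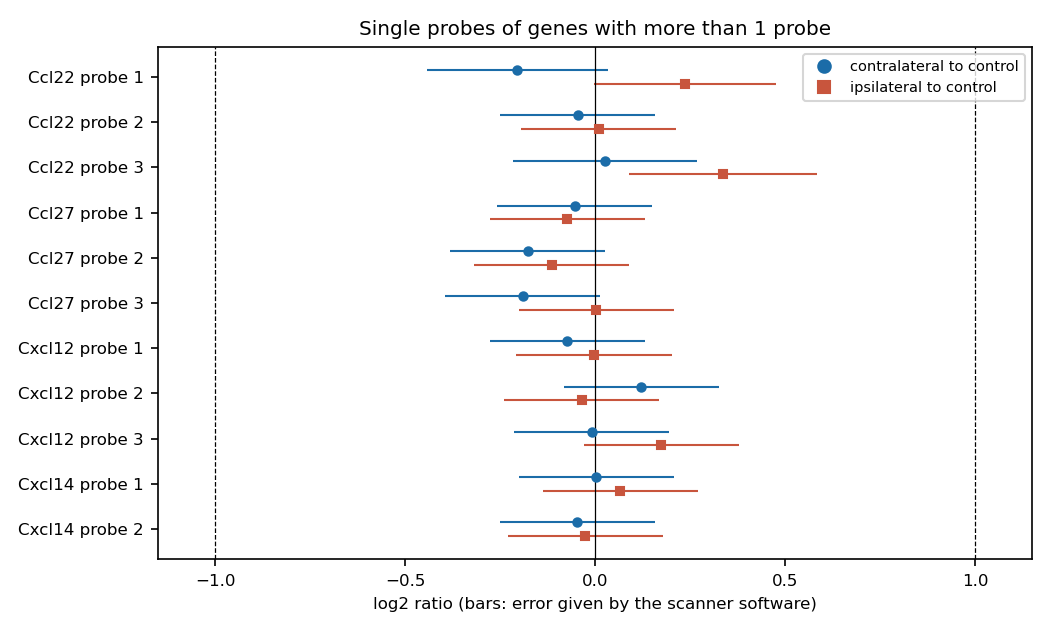
Log2 ratio to control of single probes, for Ccl22, Ccl27, Cxcl12 and Cxcl14, each with more than 1 probe above background on all 3 arrays. Circles are the contralateral and squares the ipsilateral cortex, bars are the scanner error, and dashed lines mark -1 and 1. The Ccl27, Cxcl12 and Cxcl14 probes lie near 0, and the Ccl22 probes spread from -0.20 to 0.34.

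Several members are neighbours on the genome, with no other protein-coding gene between them in the RefSeq order. Ccl5, Ccl9, Ccl6, Ccl3 and Ccl4 form 1 such run of 5 genes. Within it Ccl5 was lower and Ccl6 higher on both MCAO arrays than in the control, Ccl3 was within its error and Ccl4 was not detected. Ccl9 was also above the control on both MCAO arrays, on the ipsilateral side only with scaling. Ccl2, Ccl7, Ccl11, Ccl12 and Ccl1 form another run of 5, in which Ccl2 was within its error and Ccl12 was low contralaterally. Cxcl11, Cxcl10 and Cxcl9 are a run of 3, in which Cxcl10 was lower on both MCAO arrays and Cxcl9 higher. Neighbouring genes thus had ratios of both signs.

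The other genes of the chemokine system were described by lists, counted among genes above background on all 3 arrays. Of 16 chemokine genes outside the name rule 10 were measured, with 0 beyond the threshold contralaterally and 2 above 1 ipsilaterally, Cx3cr1 and Cmklr1. Without scaling the ipsilateral count was 0 above 1 (Cx3cr1 0.74 and Cmklr1 0.59) and 1 below -1 (Ccrl2 -1.03). Cx3cr1, the fractalkine receptor of microglia, gave 2345, 3311 and 1370 for contralateral, ipsilateral and control cortex, with ratios of 0.78 ± 0.20 and 1.27 ± 0.20. Cmklr1, the chemerin receptor, gave 11.9, 17.9 and 8.21, with 0.54 ± 0.56 and 1.13 ± 0.56. The lowest ratios of this list were those of Ccrl2, a receptor that binds chemerin, at -0.55 ± 0.28 and -0.50 ± 0.31. With normexp Ccrl2 was at -0.08 and 0.19, and with 50 added at -0.18 and -0.17. The list medians were 0.06 (-0.10 without scaling) and 0.26 (-0.27 without scaling). Cx3cr1 was thus higher on both sides of the MCAO group, while its ligand Cx3cl1 had ratios of 0.07 ± 0.20 and 0.01 ± 0.20.

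Of 28 genes of chemokine receptor signalling, such as G proteins, arrestins and receptor kinases, 23 were measured and 0 were beyond the threshold in either ratio to control. Contralateral ratios ran from -0.80 for the receptor kinase Grk3 to 0.31 for the kinase Ptk2b, and ipsilateral ones from -0.46 for Grk3 to 0.62 for Rgs1, a brake on G protein signalling. Their medians were -0.03 and 0.04 (-0.49 without scaling). In the list of chemokine presentation and processing 8 of 12 genes were measured and 0 were beyond the threshold. Its ratios ran from -0.30 and -0.65 for the protease Adam17 to 0.41 and 0.37 for Sdc1, a heparan sulfate proteoglycan, with medians of 0.03 (-0.12 without scaling) and 0.07 (-0.47 without scaling). Without scaling Adam17 was below -1 ipsilaterally at -1.18, and Grk3 came to -0.998. With normexp Adam17 was at 0.01 and -0.01, and Grk3 at -0.27 and -0.02. With 50 added Adam17 was at -0.16 and -0.32, and Grk3 at -0.44 and -0.27. Signalling and presentation genes thus held no member past the threshold as scaled, and 1 without scaling.

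Inducers of chemokines, such as cytokines and the NF-kappaB and interferon factors, gave 14 measured genes of 21 and 0 beyond the threshold in the ratios to control. Nfkbia, an inhibitor and target of NF-kappaB, gave 1210, 1246 and 708, with ratios of 0.77 ± 0.20 and 0.82 ± 0.20 (0.28 without scaling), and had the highest contralateral ratio of the list. Il1b, an inflammatory cytokine, gave 21.2, 44.1 and 23.8, with -0.16 ± 0.28 and 0.89 ± 0.27 (0.36 without scaling), and was the 1 gene of the list below -1 between the sides, at -1.05 ± 0.27 (-0.67 without scaling). The lowest ratios were -0.41 for Irf7 contralaterally and -0.48 for Il1a ipsilaterally, and the medians were -0.05 and 0.04 (-0.49 without scaling). Il1a passed -1 ipsilaterally without scaling, at -1.02, but was at 0.18 there with normexp and at -0.14 with 50 added. Il6 and Ifng were below background on every array.

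Leukocyte adhesion genes gave 9 measured of 13, with 1 above 1 in each ratio to control, Glycam1, a mucin of lymphoid venules. Its signals were 162, 985 and 16.8, and its ratios 3.27 ± 0.27 and 5.88 ± 0.27, with -2.61 ± 0.20 between the sides. The ratios to control were 1.67 and 3.91 with normexp, and 1.67 and 3.95 with 50 added. Glycam1 was lowest in the control and highest ipsilaterally, while Sele, the endothelial selectin, had the lowest ratios at -0.85 ± 1.09 and -0.64 ± 1.09. Without scaling Sele was below -1 ipsilaterally at -1.17. Its ratios were above 0 with normexp (0.10 and 0.30) and near 0 with 50 added (-0.06 and -0.05). The medians of the list were -0.24 and 0.05 (-0.48 without scaling), and Selp and Itgal were below background on every array.

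Chemokines are made and bound by particular cells, so markers of these cells were read on the same arrays, as summed signals for contralateral, ipsilateral and control cortex in this order. A sum weights probes by their signal and so follows its brightest genes, while the median ratio weights genes equally. In pooled tissue, fewer cells of a type and less RNA per cell cannot be told apart, and the part of these markers in the chemokine values was not tested. The 8 granule cell markers, with Cbln1 brightest, were all above background and summed to 92105, 94303 and 113129. Their ratios ran from -0.87 and -0.76 for Grm4 to 0.45 and 0.28 for Zic2, with medians of -0.01 and -0.08 (-0.61 without scaling). Grm4 alone gave 21504, 23292 and 39327, most of the difference between the sums, and it passed -1 in both ratios without scaling (-1.02 and -1.29). The 8 Purkinje cell markers, with Itpr1 brightest, summed to 221929, 221245 and 200582. Their medians were 0.17 and 0.14 (-0.39 without scaling), with Pcp2 lowest at -0.04 in both ratios, and Itpr1 (0.22) and Pvalb (0.26) highest contralaterally and ipsilaterally. Both neuron types of the labelled cerebellar cortex were present on all 3 arrays, with 0 of their markers beyond the threshold as scaled.

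Microglia and macrophage markers, all 13 above background, summed to 21587, 25635 and 17610. Of these, 0 were beyond the threshold contralaterally and 2 were above 1 ipsilaterally, Cx3cr1 and the complement gene C1qc at 1.05 ± 0.20, and neither passed it without scaling (0.74 and 0.52). Aif1 had the lowest ratios at -0.29 and -0.10, and the medians were 0.18 and 0.26 (-0.27 without scaling). Markers of border macrophages and monocytes, 6 measured of 9 with Lyz2 brightest, summed to 1613, 2284 and 1332. The haemoglobin scavenger receptor Cd163 was above 1 in both ratios to control, at 1.52 ± 0.24 and 1.89 ± 0.24 (0.66 and 0.88 with 50 added, 0.70 and 1.04 with normexp), and Plac8 ipsilaterally at 1.37 ± 0.20 (0.84 without scaling). Lyve1 had the lowest ratios at -0.11 and -0.04, Mrc1 was above background on some arrays only, and the medians were 0.72 and 0.71 (0.57 and 0.17 without scaling). Of the 13 microglia and macrophage markers 8 were above 0 and 5 below contralaterally, and 11 and 2 ipsilaterally (6 and 7 without scaling). Of the 6 border markers 5 were above 0 and 1 below on each side.

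Neutrophil markers gave 2 measured of 9, S100a8 and S100a9, and summed to 88.4, 98.6 and 67.6 with S100a9 brightest. S100a9 had ratios of 0.58 ± 0.23 and 1.04 ± 0.23 (0.50 without scaling) and S100a8 had 0.16 ± 0.24 and -0.19 ± 0.27, so the list median was 0.37 and 0.42 (-0.11 without scaling). The granule protein genes Elane, Ltf, Mmp8 and Ngp were below background on every array. T and natural killer cell markers gave 5 measured of 12, with 5, 8 and 7 above background on the single arrays, and summed to 323, 325 and 275 with Nkg7 brightest, and 0 were beyond the threshold. Nkg7 had the highest ratios at 0.87 and 0.74 and Cd8a the lowest at -0.57 and -0.43, with medians of 0.03 (-0.12 without scaling) and 0.44 (-0.09 without scaling). Cd3d gave 97.8, 94.0 and 96.0, and Cd5 and Cd8b were also detected on all 3 arrays. Cd3g, Cd4 and Gzmb were above background on some arrays, and Cd3e, Cd2, Lck and Klrd1 on none. B cell markers gave 2 measured of 6, Pax5 at -0.16 and 0.11 and Blnk at 0.02 and 0.19, with sums of 152, 180 and 166 and medians of -0.07 and 0.15 (-0.38 without scaling). Of the T cell markers more were detected ipsilaterally than contralaterally.

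Endothelial markers, all 9 measured with Cldn5 brightest, summed to 5744, 5852 and 7260, with medians of -0.24 and -0.14 (-0.68 without scaling) and 0 beyond the threshold. Without scaling 3 were below -1 ipsilaterally, Kdr (-1.30), Tie1 (-1.14) and Emcn. Contralateral ratios ran from -0.78 for Tie1 to 0.04 for Flt1, and ipsilateral ones from -0.77 for Kdr to 0.43 for Cdh5. Astrocyte and Bergmann glia markers, all 9 measured with Aqp4 brightest, summed to 78422, 78805 and 87773, with medians of -0.07 and -0.16 (-0.69 without scaling) and 0 beyond the threshold. Without scaling 2 were below -1 ipsilaterally, Fabp7 (-1.43) and Gfap. Their ratios ran from -0.79 and -0.89 for Fabp7 to 0.39 and 0.27 for Gdf10. Both lists had medians below 0 in the ratios to control.

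Markers of tissue at the border of the cortex also differed between arrays, not all in the same direction. Their part in the chemokine values was not tested. Leptomeningeal fibroblast markers, all 8 measured with Col1a2 brightest, summed to 7769, 10498 and 13568. Their medians were -0.79 and -0.32, from Col1a1 (-1.26 ± 0.20) to Dcn (-0.03) contralaterally and from Lum (-0.63) to Dcn (0.23) ipsilaterally, with Col1a1 the 1 gene below -1. Without scaling the medians were -0.94 and -0.85, and 4 were below -1 contralaterally and 3 ipsilaterally. Choroid plexus markers, 7 measured of 8 with Ttr brightest, summed to 10772, 76708 and 34040. Ttr, which carries thyroid hormone, had ratios of -1.73 ± 0.20 and 1.19 ± 0.20 and Slc4a5 had -2.12 ± 0.30 and -1.20 ± 0.26, while Otx2 was highest contralaterally at -0.02. The list medians were -0.67 and 0.30 (-0.23 without scaling), and Ttr was 0.66 ipsilaterally without scaling. There Folr1 joined Ttr and Slc4a5 below -1 contralaterally. Ttr was thus lowest contralaterally and highest ipsilaterally.

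Erythroid markers, 5 measured of 10 with Hba-a1 brightest, summed to 1361, 1193 and 2796. Below -1 were 2 contralaterally, Hbb-b1 (-1.70 ± 0.20) and Hbb-bs (-1.76 ± 0.22), and 3 ipsilaterally, Hbb-b1 (-2.14 ± 0.21), Hbb-bs (-2.66 ± 0.31) and Hba-a1 (-1.03 ± 0.20). The highest ratios were those of Ahsp at -0.75 contralaterally and Hba-a2 at -0.82 ipsilaterally, with medians of -0.88 and -1.03, and Hba-a3 was below background on every array. Without scaling 4 were below -1 contralaterally and 5 ipsilaterally. The measured globin transcripts were lower on both MCAO arrays than in the control.

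With 50 added to the signal, which damps dim probes, Cmklr1, C1qc, Cd163, S100a9, Slc4a5 and Hba-a1 no longer passed the threshold in either ratio to control, nor did Hbb-bs contralaterally. Cx3cr1, Plac8, Glycam1, Col1a1, Ttr and Hbb-b1 still passed it wherever they had. With normexp Hbb-bs was at -0.88 and -0.92, so it passed on neither side, and nor did Cmklr1, C1qc, S100a9, Slc4a5 and Hba-a1. The ipsilateral ratios of Cd8a (0.10), S100a8 (0.26), Lyve1 (0.12), Tie1 (0.07), Lum (0.06) and Ahsp (0.09) turned with normexp from below 0 to above 0.

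**Figure D4:**
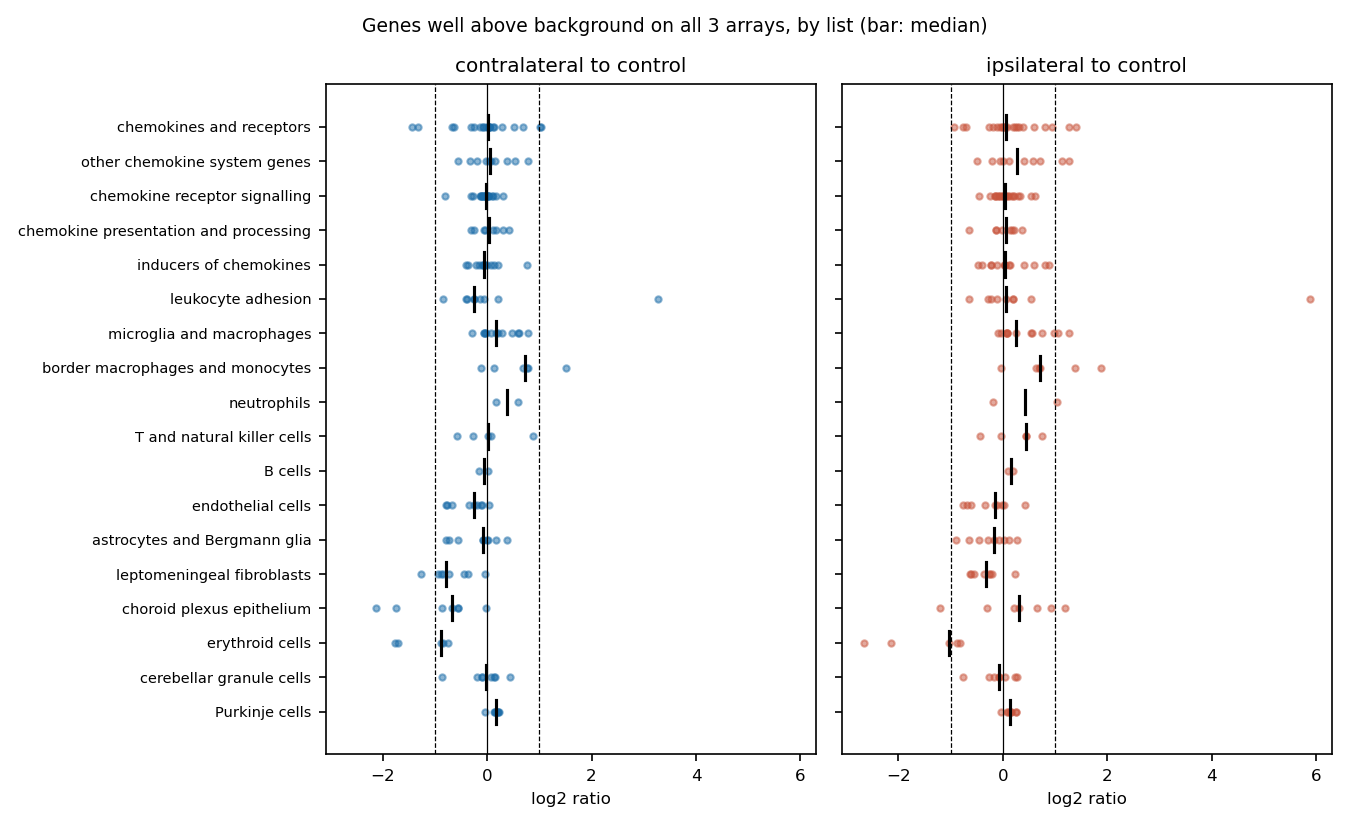
Log2 ratio to control of each gene above background on all 3 arrays, by list, for the contralateral (left) and ipsilateral (right) cortex. Bars are medians and dashed lines mark -1 and 1. The chemokine members spread around 0, the erythroid markers lie below 0, and Glycam1 is the point at 3.27 and 5.88.

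The threshold was crossed narrowly by some members, so the 5 genes beyond it were followed through 12 other settings. Contralaterally Ccl5 ran from -1.59 to -0.87 and Ccl12 from -1.47 to -0.10. Ccl6 ran from 0.45 to 1.04 contralaterally and from 0.68 to 1.42 ipsilaterally. Cxcl2 ran from 0.51 to 1.07 contralaterally, and Ccr6 from 0.26 to 1.55 ipsilaterally. Each of these 5 genes kept the sign of the ratio in which it passed the threshold under every setting that gave it a value, and Ccl5 was contralaterally below -1 in all but normexp (-0.87).

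**Figure D5:**
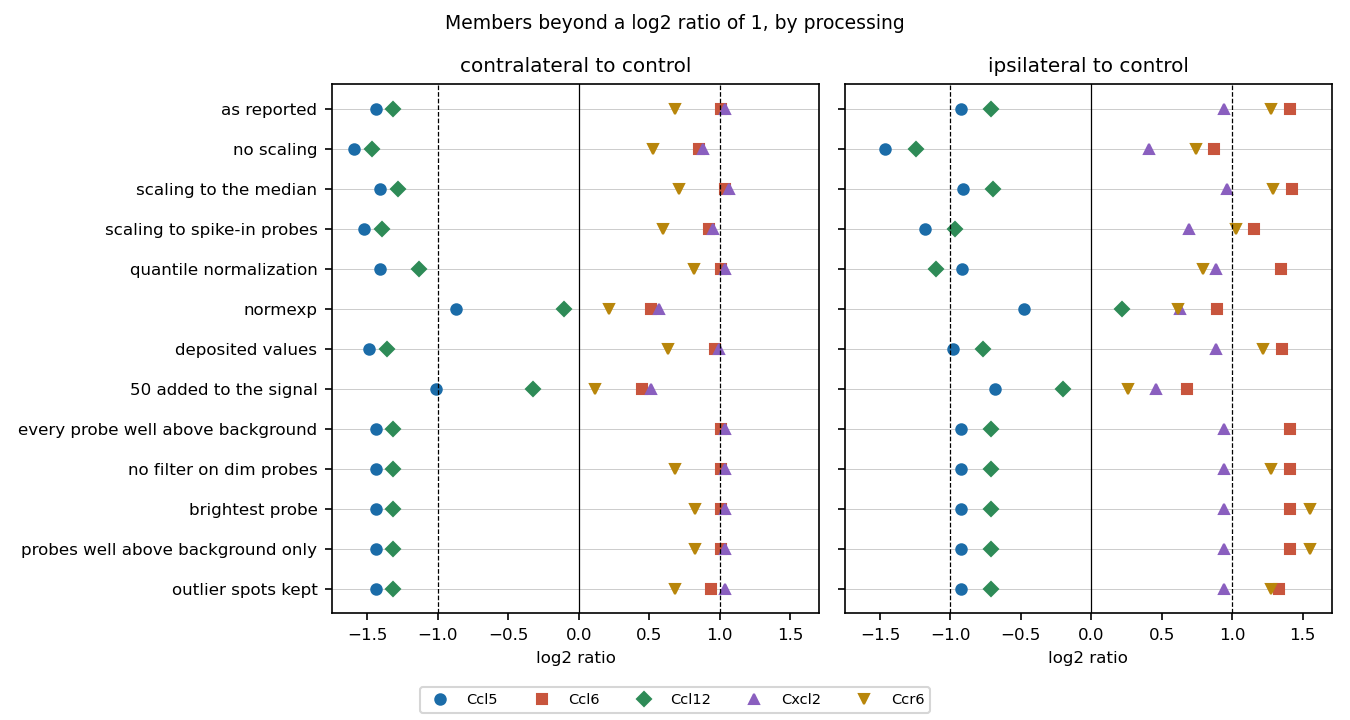
Log2 ratio to control of the 5 members beyond the threshold under each processing setting, for the contralateral (left) and ipsilateral (right) cortex. Marks are genes and dashed lines are -1 and 1. Each ratio is smaller in size with normexp and with 50 added to the signal than as reported, and Ccl12 passes 0 ipsilaterally under normexp.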

How the data were processed

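The authors scanned each array and extracted signals with Agilent Feature Extraction 12.1.0.3. From the deposited array files the background-subtracted intensity per spot was taken, and each array was scaled to a common 75th percentile. The authors also deposited a normalized intensity column with medians of 139, 140 and 147 for contralateral, ipsilateral and control cortex, which their methods describe as normalized to control samples on each chip. The files do not show which values served as that basis, and the column was used as an alternative. Of 39957 accessions of noncontrol spots, 17616 matched a RefSeq symbol (GRCr8). Spots of a probe were averaged as log2 signals after outlier spots were left out, and probes of a gene were averaged likewise. Members and lists were chosen with earlier results of these data known.

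Members named with signals were above background on at least 1 array, and in each list the named genes are those beyond a log2 ratio of 1 in a ratio to control and those with its highest and lowest ratio. Other list genes named were chosen after their values were seen. The background of dimmer genes was chosen after seeing the data. Scaling was also left out, set by the median or by 8 spike-in probes, or replaced with quantile normalization. Other alternatives were normexp on median signals with an offset of 50 (limma 3.58.1, R 4.3.3), 50 added to each signal, and other rules for dim or outlier spots and probes. Tables and figures were made with Python 3.11.15, numpy 2.4.6, pandas 2.3.3 and matplotlib 3.10.9.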

Additional observations from a re-analysis of the deposited data

Results flagged for a closer look

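Among the members and list genes above background on all 3 arrays, 5 had ratios to control of opposite sign on the sides of the MCAO group, beyond the scanner error on each. Ccl19 had a contralateral to ipsilateral log2 ratio of -0.62, with -0.30 and 0.31 to control (the latter -0.22 without scaling and 0.06 with spike-in scaling), and the difference between the sides was -0.24 without scaling. The other 4 are choroid plexus markers. Ttr, the brightest of them, had a contralateral to ipsilateral ratio of -2.93, with -1.73 and 1.19 to control. That ratio was -1.80 for Folr1, -1.21 for Aqp1 and -0.89 for Kcnj13. Without scaling the ipsilateral ratio to control of Kcnj13 went from 0.21 to -0.32, and that of Aqp1 from 0.66 to 0.13, inside its scanner error of 0.21. Each side was 1 array of the same 4 rats, so none of these differences between sides was tested.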

How the results depend on the processing

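Each value was recomputed under 12 settings, and the background also over dimmer genes, an addition made after seeing the data. Among the counts and medians, 77 values moved little and 31 moved more, and no member beyond the threshold changed sign in that ratio. Without scaling, the contralateral to control count above 1 was 0 and the median -0.13, the ipsilateral to control counts were 0 above and 3 below (Ccl5, Ccl12 and Cxcl10) with a median of -0.47, and the median between the sides was 0.17. Spike-in scaling gave 0 above 1 contralaterally, 2 below -1 ipsilaterally (Ccl5 and Cxcl10) with a median of -0.19, and -0.040 between the sides. Quantile normalization gave 1 above and 1 below ipsilaterally and -0.036 between the sides. Normexp gave 0 above and 0 below contralaterally and 0 above ipsilaterally with a median of 0.21. The deposited values gave 0 above 1 contralaterally, with Ccl6 at 0.96 and Cxcl2 at 0.99. With 50 added there were 0 above and 1 below contralaterally, 0 above ipsilaterally and a median of -0.11 between the sides. With every probe required above background (19 members) 1 was above 1 ipsilaterally. With no filter on dim probes (49 members) 7 were below -1 contralaterally, 9 above and 3 below ipsilaterally with a median of 0.31, and 9 below between the sides with a median of -0.40. The brightest probe gave -0.105 between the sides, and keeping outlier spots gave 1 above 1 contralaterally. Of single member ratios 101 moved and 737 did not, and 40 of the moved ones came without scaling. Those 40 changed by the constant amount per comparison given above. The cause of the other moves was not tested. No paired analysis was possible because each group is 1 array. Signal over background limits most members: 18 of 49 were below it on every array, and 16 of the 22 measured ones were dimmer than the median named gene.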
